A study of Homo sapiens with 12 samples.

Results

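Genes of retinoid metabolism and of the GPRC5 receptor family were examined in 2 HER2 breast cancer cell lines, MDA-MB-453 and SKBR3. The 10 genes were RDH16, RDH10, RDH11, DHRS3, ALDH1A1, ALDH1A3, RARA, RARB, GPRC5A and GPRC5C, taken by symbol from the 62696 gene identifiers of each count table. They were selected on their levels and on their changes with TWEAK in these same libraries, so that their changes and calls are given as a description, without p-values. The study asked which genes respond to TWEAK, a cytokine of the TNF family that signals through its receptor Fn14, in breast cancer cells of several subtypes. Poly-A RNA-seq was done on 3 biological replicates of each line without TWEAK and 3 with it, which gave 4 groups and 12 libraries. Cells were grown with 10% FBS and starved in Opti-MEM for 8 h. TWEAK was then given at 10 ng/ml for 48 h with a second dose at 24 h. The labels carry this text on the untreated replicates too and do not say how those were handled. No allele or transgene is named for either line, and each line stands for 1 established human cell line.

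Retinol enters cells from the blood and is oxidised by retinol dehydrogenases to retinaldehyde, a step that retinaldehyde reductases reverse. Retinaldehyde dehydrogenases then make retinoic acid irreversibly, which binds the retinoic acid receptors, nuclear receptors that pair with retinoid X receptors on DNA. In the mammary epithelium and in breast cancer cells, retinoic acid is known to restrain growth, and RARA lies on the same chromosome arm as ERBB2, the gene of HER2. GPRC5A and GPRC5C are orphan G protein-coupled receptors of class C, a family first described through a gene induced by retinoic acid.

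Levels are given as CPM, which is the count per library total in its usual scaling, corrected with TMM factors over all 12 libraries, and levels of different genes are compared only as CPM per kb of exon. The 6 SKBR3 libraries totalled 24842722 to 28647209 counts and the 6 MDA-MB-453 libraries 24773003 to 35208304, so that 3 counts stood for 0.108 to 0.125 CPM and for 0.0818 to 0.115 CPM. TWEAK replicate 2 stood apart from the other TWEAK replicates of its line. The chi-square per degree of freedom of a pair of replicates was 18.7 to 21.1 where it was included in SKBR3 and 1.70 to 5.20 otherwise, and 4.85 to 9.20 against 1.99 to 2.67 in MDA-MB-453. ERBB2 reached 7578 ± 285 CPM (SD, n = 3) in untreated SKBR3 and 890 ± 16.1 CPM in untreated MDA-MB-453. The epithelial markers KRT8, KRT18 and EPCAM averaged 4948, 2187 and 310 CPM in untreated SKBR3. In untreated MDA-MB-453 they averaged 595, 570 and 383 CPM. CDH1, the E-cadherin gene, held at most 7 counts in any SKBR3 library and averaged 47.6 CPM in untreated MDA-MB-453. The summed level of 9 markers of other cell types ranged over 21.6 to 24.8 CPM in SKBR3, against 107 to 123 CPM in MDA-MB-453, most of it from COL1A1, and the leukocyte marker PTPRC held at most 5 counts in any library. Of these markers, ACTA2 was higher with TWEAK in SKBR3, at 1.20 CPM against 0.419 CPM, and part of its exonic bases is shared with ACTA2-AS1 and FAS on the opposite strand. COL1A2, which was too low to be tested, did not overlap there either, with 8 to 12 counts against 1 to 3 in untreated replicates. The part of these genes in the results was not tested. The NF-kappaB genes NFKB2, RELB and BIRC3 were higher with TWEAK in both lines, with log2 fold changes of 1.44 to 3.42 in SKBR3 and of 1.67 to 3.57 in MDA-MB-453.

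Promoter windows of 3 of the genes are shown. RDH16 and DHRS3 were called higher with TWEAK in both lines. The third, RARB, carries the known retinoic acid response element against which the others can be read. Each window holds the 250 bases before a RefSeq transcription start and 50 bases from it, on build GRCh38.p14, written along the strand of the gene. Capitals mark a direct repeat of 2 receptor half-sites, and the windows of RDH16 and DHRS3 have none. The window of RDH16 is chr12:56957559-56957858 on the minus strand, that of DHRS3 is chr1:12618161-12618460 on the minus strand, and that of RARB is chr3:25428013-25428312 on the plus strand.
RDH16: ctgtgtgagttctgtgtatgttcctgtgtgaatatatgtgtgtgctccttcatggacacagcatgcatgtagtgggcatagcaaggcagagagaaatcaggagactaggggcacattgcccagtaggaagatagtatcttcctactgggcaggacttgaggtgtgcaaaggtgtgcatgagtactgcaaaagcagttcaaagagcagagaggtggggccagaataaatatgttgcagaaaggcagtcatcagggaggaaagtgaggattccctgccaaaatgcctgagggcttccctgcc
DHRS3: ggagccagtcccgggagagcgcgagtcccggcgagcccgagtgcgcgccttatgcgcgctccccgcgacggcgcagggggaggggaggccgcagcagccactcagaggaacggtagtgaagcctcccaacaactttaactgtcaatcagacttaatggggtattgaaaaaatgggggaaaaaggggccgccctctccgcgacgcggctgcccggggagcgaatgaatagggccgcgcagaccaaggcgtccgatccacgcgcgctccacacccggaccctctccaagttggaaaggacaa
RARB: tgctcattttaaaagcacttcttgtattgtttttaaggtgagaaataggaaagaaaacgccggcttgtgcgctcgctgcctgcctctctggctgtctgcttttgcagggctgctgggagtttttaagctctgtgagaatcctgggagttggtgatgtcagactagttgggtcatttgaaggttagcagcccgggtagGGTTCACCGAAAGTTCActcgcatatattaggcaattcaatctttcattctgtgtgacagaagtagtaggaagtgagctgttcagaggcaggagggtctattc

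In the window of RARB shown, 1 of 4, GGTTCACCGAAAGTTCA stood at -53 to -37 relative to the start. It joins 2 half-sites with 5 bases between them. The half-sites searched were AGGTCA or GGGTCA and also AGTTCA or GGTTCA on both strands, and such a repeat occurred in 0.0883% of 35116 RefSeq windows of the same length. A repeat with 2 bases between the half-sites occurred in 0.0399% of windows and one with 1 base in 0.131%, and neither was found in the windows of the members. In the window of RDH16, a single half-site, AGTTCA, lay at -57 to -52, and single half-sites occurred in 38.6% of all windows. The first window of DHRS3 held none, while each of its other 2 windows held 1. A match to the NF-kappaB consensus occurred in 5.91% of all windows and, among the members, only in 1 of the 3 windows of RARA, as GGGATTCTCC at -206 to -197. These are matches of letters in 14 windows of 7 genes, and they do not show binding. RDH10, GPRC5A and GPRC5C had no window. The counts are per gene, and do not tell which start was used. For RDH16 the gene model of GENCODE release 44 (chr12:56951431-56959374) reaches further upstream than the RefSeq start at 56957608.

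With TWEAK, the retinoid genes of SKBR3 differed in both directions. RDH16 and DHRS3 were higher, ALDH1A1, ALDH1A3 and GPRC5A were lower, and the remaining 5 genes were not called. A gene was called where edgeR's quasi-likelihood test over all genes of the line gave a p that, adjusted by Benjamini-Hochberg, did not exceed 0.1. This held for 10.4% of the 15661 genes tested in SKBR3, 6.6% higher and 3.82% lower. In MDA-MB-453, RDH16 and DHRS3 were called higher and none of the 8 members tested was called lower, against 1.49% of 14929 genes called, 1.29% higher and 0.208% lower. These backgrounds moved with single libraries. Without TWEAK replicate 2 the genes called numbered 2780 instead of 1633 in SKBR3 and 2101 instead of 223 in MDA-MB-453, and without untreated replicate 2 they numbered 926 and 131. Nothing is read from these counts about the members, since the same contrasts served to select them. Taken gene by gene, 3 against 3 libraries allow an exact permutation p no smaller than 0.1, so the calls rest on the spread that edgeR shares between genes.

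**Figure D1:**
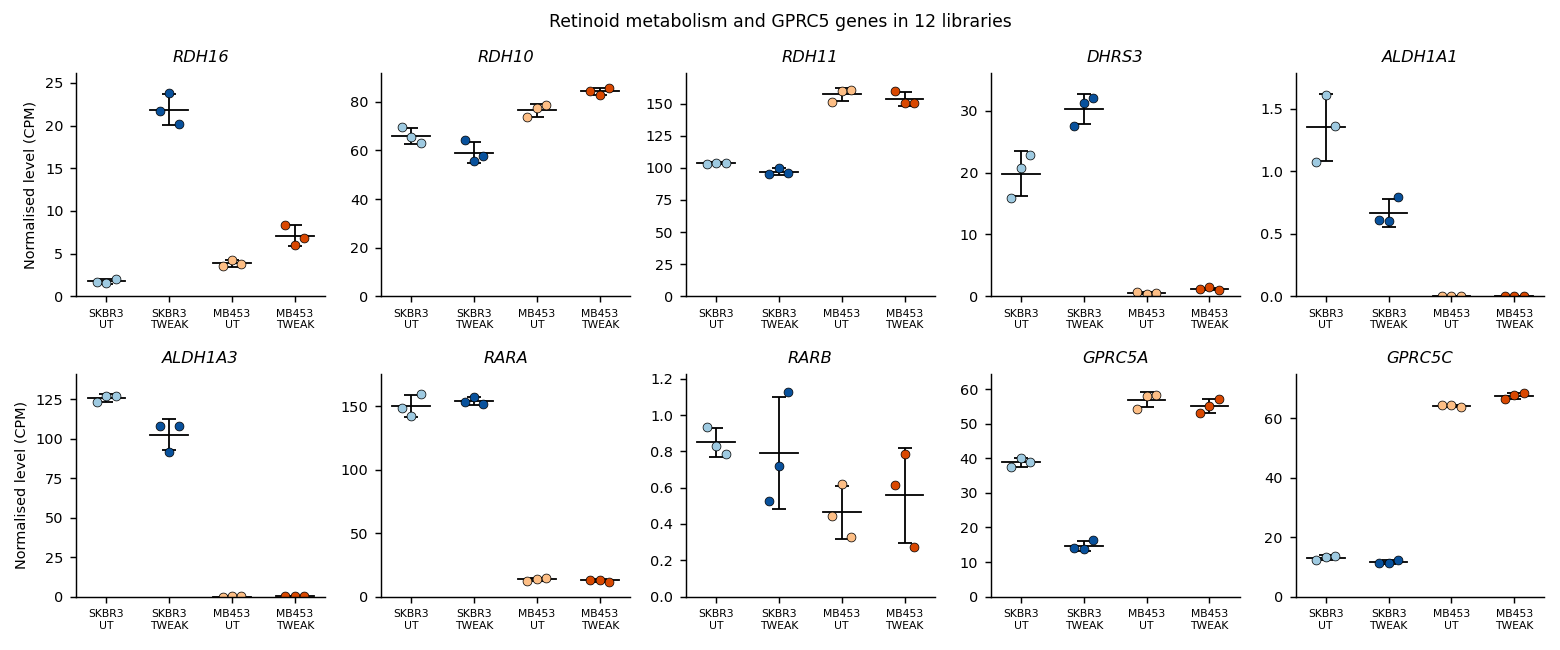
Levels of the 10 genes in CPM (linear axis from 0), with 1 point per library, a line at the group mean and bars of 1 SD, for untreated (UT) and TWEAK-treated replicates of SKBR3 and MDA-MB-453 (MB453). RDH16 stands at 20.2 to 23.8 CPM in TWEAK-treated SKBR3 and below 10 CPM in all other groups, and RARA, ALDH1A3 and DHRS3 are high in SKBR3 alone.

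RDH16, a microsomal dehydrogenase that oxidises retinol and 3-alpha-hydroxysteroids, had the largest change among the members in SKBR3. In SKBR3 its level was 1.62, 1.53 and 2.06 CPM in untreated replicates and 21.7, 23.8 and 20.2 CPM in TWEAK-treated ones. The lowest TWEAK-treated replicate thus lay far above the highest untreated one. The log2 fold change was 3.65 (SE 0.129), which is 12.5-fold. In MDA-MB-453 the level was 3.53, 4.27 and 3.78 CPM in untreated and 8.39, 5.97 and 6.85 CPM in TWEAK-treated replicates. The groups did not overlap there either, but the change was smaller, with a log2 fold change of 0.87 (SE 0.130) or 1.82-fold. Without TWEAK, RDH16 was the higher in MDA-MB-453, whereas with TWEAK it was the higher in SKBR3. The difference between the log2 fold changes, MDA-MB-453 minus SKBR3, was -2.79 (SE 0.204).

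RDH10, the retinol dehydrogenase that supplies most retinaldehyde in the embryo, lies on chromosome 8 and was abundant in all groups. In SKBR3 it was at 69.5, 65.5 and 62.9 CPM in untreated and 64.2, 55.6 and 57.6 CPM in TWEAK-treated replicates. The groups overlapped, and RDH10 was not called, with a log2 fold change of -0.16 (SE 0.0735). In MDA-MB-453 the untreated replicates were at 73.6, 77.5 and 78.6 CPM and the TWEAK-treated ones at 84.6, 82.7 and 85.7 CPM. Here all TWEAK-treated replicates were above all untreated ones, but by only 0.14 (SE 0.0400) on the log2 scale, and the gene was not called. With single libraries left out it was called only without TWEAK replicate 2, at 0.15. RDH10 was also called there with the replicate block. The lines differed in the change of RDH10 by 0.30 (SE 0.0844) on the log2 scale, MDA-MB-453 minus SKBR3. RDH10 shares 5.22% of its exonic bases with RDH10-AS1 on the opposite strand.

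RDH11 and DHRS3 encode enzymes that reduce retinaldehyde back to retinol. RDH11 (chr14:67676800-67695793) was at 103, 104 and 104 CPM in untreated and 94.96, 100.2 and 96.0 CPM in TWEAK-treated SKBR3. The groups did not overlap, yet the log2 fold change was only -0.10 (SE 0.0578) and RDH11 was not called. In MDA-MB-453 it was higher throughout, at 152 to 160 CPM in untreated and 150 to 160 CPM in TWEAK-treated replicates, with overlapping groups and a log2 fold change of -0.03 (SE 0.0401). DHRS3 (chr1:12567910-12618210), itself known as a gene induced by retinoic acid, was at 15.9, 20.7 and 22.9 CPM in untreated and 27.6, 31.4 and 32.1 CPM in TWEAK-treated SKBR3. The lowest TWEAK-treated replicate was above the highest untreated one, and the log2 fold change was 0.61 (SE 0.121), or 1.53-fold. In MDA-MB-453 the gene was near the floor, at 0.669, 0.328 and 0.477 CPM in untreated and 1.15, 1.42 and 0.982 CPM in TWEAK-treated replicates, that is 9 to 18 and 30 to 38 counts. These groups did not overlap, and the log2 fold change was 1.24 (SE 0.281), or 2.37-fold. The call of DHRS3 in MDA-MB-453 was lost without untreated replicate 2 (log2 fold change 1.02) and without untreated replicate 3 (1.22). DHRS3 was not called for a difference in its change between the lines (0.62, SE 0.362).

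ALDH1A1 and ALDH1A3 encode retinaldehyde dehydrogenases, which make retinoic acid. ALDH1A1 (chr9:72900671-73080442) was low in SKBR3, at 1.08, 1.61 and 1.36 CPM in untreated and 0.607, 0.601 and 0.793 CPM in TWEAK-treated replicates. All TWEAK-treated replicates were below all untreated ones, at 15 to 19 counts against 30 to 39, and the log2 fold change was -1.01 (SE 0.250). In MDA-MB-453 ALDH1A1 had 0 counts in each of the 6 libraries, which allows up to 0.0818 to 0.115 CPM, counting error only. ALDH1A3 (chr15:100877714-100916626) was the abundant enzyme in SKBR3, at 123, 127 and 127 CPM in untreated and 108, 91.3 and 108 CPM in TWEAK-treated replicates. The groups did not overlap and the log2 fold change was -0.30 (SE 0.0725), with the lowest value in TWEAK replicate 2. Without that replicate the change was -0.22 and the call remained. In MDA-MB-453 ALDH1A3 held 0, 1 and 1 counts in untreated and 2, 1 and 2 counts in TWEAK-treated replicates, so neither gene was tested there. Both SKBR3 calls depended on single untreated libraries. They were lost without untreated replicate 2 (log2 fold changes of -0.87 for ALDH1A1 and -0.29 for ALDH1A3) and without untreated replicate 3 (-0.996 and -0.29), and that of ALDH1A1 also without TWEAK replicate 1 (-0.95). Of the exonic bases of ALDH1A3, 32.1% are shared with ALDH1A3-AS1 on the opposite strand. Whether the counting used the strand is not given in the sources used here.

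RARA and RARB, which encode receptors for retinoic acid, were not called for a change with TWEAK in either line. RARG, a receptor of the same family outside the members, was called higher in SKBR3 (log2 fold change 0.29). That call was lost with some single libraries left out, as given below. RARA (chr17:40309180-40357643) was at 149, 143 and 160 CPM in untreated and 154, 158 and 151 CPM in TWEAK-treated SKBR3, and the log2 fold change was 0.03 (SE 0.0622). In MDA-MB-453 it was at 12.5, 14.0 and 14.4 CPM in untreated and 13.4, 13.4 and 11.6 CPM in TWEAK-treated replicates, with a log2 fold change of -0.10 (SE 0.0799). In both lines the groups overlapped, and the lines were far apart. RARA shares 21.4% of its exonic bases with genes on the opposite strand, among them RARA-AS1. RARB (chr3:24687887-25597932) was low everywhere, at 0.934, 0.828 and 0.784 CPM in untreated and 0.526, 0.722 and 1.13 CPM in TWEAK-treated SKBR3. In MDA-MB-453 it was at 0.446, 0.620 and 0.330 CPM and at 0.616, 0.784 and 0.273 CPM. With 9 to 27 counts per library, its log2 fold changes of -0.12 (SE 0.294) and 0.18 (SE 0.392) had the largest standard errors among the members tested, and their sign turned when single libraries were left out. The repeat shown above lies in 1 of the 4 windows of RARB, and the other 3 windows hold none.

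GPRC5A and GPRC5C parted in SKBR3. GPRC5A (chr12:12891559-12917937) was at 37.4, 40.2 and 38.8 CPM in untreated and 14.0, 13.8 and 16.2 CPM in TWEAK-treated SKBR3. No TWEAK-treated replicate came near the untreated ones, and the log2 fold change was -1.41 (SE 0.0817), or 2.65-fold lower. In MDA-MB-453 it was at 54.4, 58.2 and 58.3 CPM in untreated and 53.1, 55.2 and 57.1 CPM in TWEAK-treated replicates. These groups overlapped, with a log2 fold change of -0.05 (SE 0.0454), and the change differed between the lines by 1.36 (SE 0.0925) on the log2 scale, MDA-MB-453 minus SKBR3. GPRC5C (chr17:74424851-74451653) was at 12.3, 13.1 and 13.8 CPM in untreated and 11.2, 11.4 and 12.4 CPM in TWEAK-treated SKBR3, with overlapping groups and a log2 fold change of -0.16 (SE 0.0872). In MDA-MB-453 it was at 64.3, 64.3 and 63.8 CPM and at 66.3, 67.8 and 68.3 CPM, which did not overlap but differed by only 0.07 (SE 0.0384) on the log2 scale. GPRC5C was not called in either line.

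**Figure D2:**
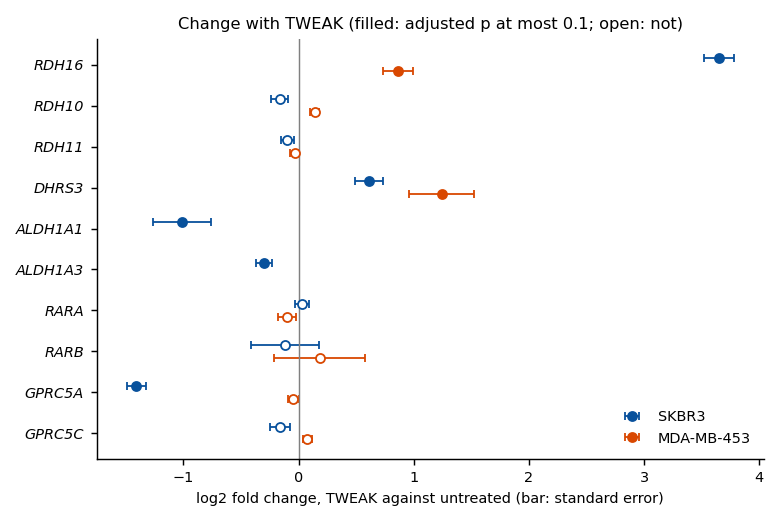
Log2 fold change of the members with TWEAK in SKBR3 (blue) and MDA-MB-453 (orange), with bars of 1 standard error and filled points where edgeR's adjusted p was at most 0.1. RDH16 stands at 3.65 and 0.87, DHRS3 is to the right of 0 in both lines, and GPRC5A is at -1.41 in SKBR3 and -0.05 in MDA-MB-453; ALDH1A1 and ALDH1A3 were not tested in MDA-MB-453.

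Across the members, untreated and TWEAK-treated replicates did not overlap for 6 of 10 genes in SKBR3, against 26.5% of all genes tested. In MDA-MB-453 they did not overlap for RDH16, RDH10, DHRS3 and GPRC5C among the 8 genes tested, against 15.1% of all genes. The line by TWEAK contrast called RDH16, RDH10 and GPRC5A, 3 of the 10 members tested, against 3.37% of 17201 genes. ALDH1A1 and ALDH1A3, which held at most 2 counts in any MDA-MB-453 library, are among the 7 not called. The call of RDH10 in this contrast was lost in 11 of 17 alternatives, 9 of them with a single library left out (log2 difference 0.26 to 0.32). Leaving out TWEAK replicate 2, which stood apart, kept RDH16 at 3.59, DHRS3 at 0.59, ALDH1A1 at -0.94 and GPRC5A at -1.36 on the log2 scale in SKBR3, all called. In MDA-MB-453 RDH16 was then at 0.96 and DHRS3 at 1.10, both called.

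Summed by role, the levels per length showed what RDH16 added in SKBR3. RDH16 and RDH10, the members whose enzymes oxidise retinol, together were at 12.9 ± 0.568 CPM per kb (SD, n = 3) untreated and 17.4 ± 0.839 CPM per kb with TWEAK. The groups did not overlap, the lowest TWEAK-treated library being at 16.6 and the highest untreated one at 13.5. Retinol dehydrogenases outside the members, such as SDR16C5, are not in this sum. The share of RDH16 in this sum was 3.46% to 4.81% in untreated and 34.2% to 39.7% in TWEAK-treated SKBR3. In MDA-MB-453 the sum was 15.5 ± 0.566 and 17.9 ± 0.556 CPM per kb, and RDH16 made up 6.87% to 7.81% and 10.0% to 13.2% of it. These groups did not overlap either, at 14.8 to 15.8 untreated and 17.2 to 18.3 with TWEAK. There RDH10 averaged 14.4 and 15.8 CPM per kb, and RDH16 1.11 and 2.04 CPM per kb. The reductases RDH11 and DHRS3 summed to 24.5 ± 1.16 and 26.3 ± 1.04 CPM per kb in SKBR3, with overlapping groups, and RDH11 made up at least 98.5% of their sum in MDA-MB-453. ALDH1A1 and ALDH1A3 summed to 24.0 ± 0.529 CPM per kb in untreated and 19.5 ± 1.85 CPM per kb in TWEAK-treated SKBR3, of which ALDH1A1 was at most 2.33%. These sums are levels of mRNA, chosen after the members were seen and not tested, and enzyme activity was not measured.

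Between the untreated lines all 10 members were called, against 84.2% of 17201 genes, 5 of them higher and 5 lower in SKBR3. Line and library preparation cannot be told apart in this comparison. DHRS3 was 40.0-fold (log2 5.32, SE 0.203) and RARA 11.0-fold (log2 3.46, SE 0.0721) higher in SKBR3, and RARB was 1.82-fold higher (log2 0.86, SE 0.369). The call of RARB was lost without untreated replicate 1 of SKBR3 (log2 0.79) and without untreated replicate 3 of MDA-MB-453 (0.67). ALDH1A1, with 102 counts over the untreated SKBR3 libraries and 0 in MDA-MB-453, was at least 12.1-fold higher in SKBR3 when MDA-MB-453 was set to the level of 3 counts per library. ALDH1A3 held 9567 counts against 2, a ratio of 5119 with a 95% interval of 1417 to 42279 that covers counting error only. ALDH1A3 was at the limit of detection in untreated MDA-MB-453, so this ratio is not an exact fold. GPRC5C was 4.92-fold (log2 -2.30, SE 0.0602), RDH16 2.23-fold, RDH11 1.52-fold, GPRC5A 1.47-fold and RDH10 1.16-fold lower in SKBR3 than in MDA-MB-453. The members with the most unequal levels were thus the retinaldehyde dehydrogenases, which were nearly absent from MDA-MB-453, and DHRS3.

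**Figure D3:**
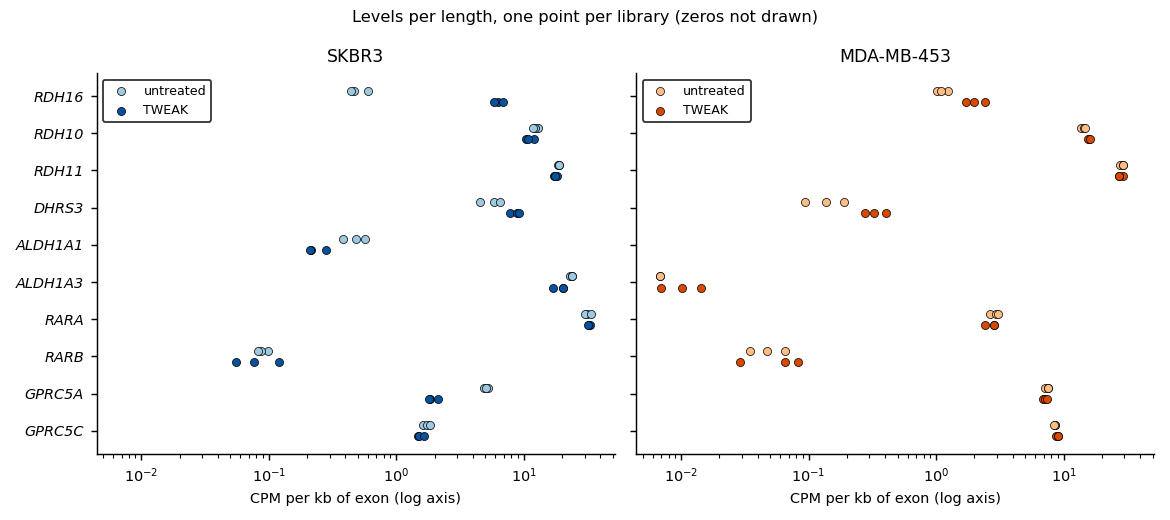
Level of each member per kb of exon in CPM (log axis), with 1 point per library, light for untreated and dark for TWEAK-treated replicates, in SKBR3 and MDA-MB-453. RARA and ALDH1A3 lead in SKBR3 and RDH11 and RDH10 in MDA-MB-453; libraries with 0 counts, among them all of MDA-MB-453 for ALDH1A1, are not drawn.

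The order of the members per length differed between the lines. In untreated SKBR3 it was RARA (31.7 CPM per kb), ALDH1A3 (23.6), RDH11 (18.8), RDH10 (12.4), DHRS3 (5.65), GPRC5A (5.07), GPRC5C (1.73), RDH16 (0.502), ALDH1A1 (0.476) and RARB (0.0899). Of these neighbours, DHRS3 and GPRC5A, and RDH16 and ALDH1A1, overlapped in their libraries. With TWEAK, RDH16 moved to 6.31 CPM per kb, between DHRS3 at 8.64 and GPRC5A at 1.92, and ALDH1A3 at 19.2 overlapped RDH11 at 17.7. In untreated MDA-MB-453 the order was RDH11 (28.6 CPM per kb), RDH10 (14.4), GPRC5C (8.51), GPRC5A (7.43), RARA (2.88), RDH16 (1.11), DHRS3 (0.140) and RARB (0.0493), followed by ALDH1A3 and ALDH1A1 at or near 0. This order was unchanged with TWEAK for the first 8, of which RDH16 reached 2.04 and DHRS3 0.337 CPM per kb.

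RARA was set beside its neighbours on chromosome 17, since ERBB2 (chr17:39687914-39730426) lies on the same chromosome. All 5 tested genes before it were higher in untreated SKBR3 than in untreated MDA-MB-453, namely MSL1 (6.96-fold), CASC3 (10.5-fold), RAPGEFL1 (18.4-fold), WIPF2 (12.1-fold) and CDC6 (7.51-fold). RARA, at 11.0-fold, lay within their range. Of the genes after it, TOP2A was 3.33-fold and Y_RNA 4.83-fold higher, whereas GJD3-AS1 stood at 0.392 of the MDA-MB-453 level. Y_RNA lies within the span of TOP2A and held at most 22 counts in untreated SKBR3 and at most 8 in untreated MDA-MB-453. RARA-AS1 held at most 3 counts in untreated SKBR3 and at most 11 in untreated MDA-MB-453, and ENSG00000287644, which overlaps RARA, at most 1 in untreated MDA-MB-453, so that no fold is given for either. ERBB2 was 8.51-fold and GRB7 8.50-fold higher in SKBR3. DNA copy number was not measured, and its part in these levels was not tested.

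**Figure D4:**
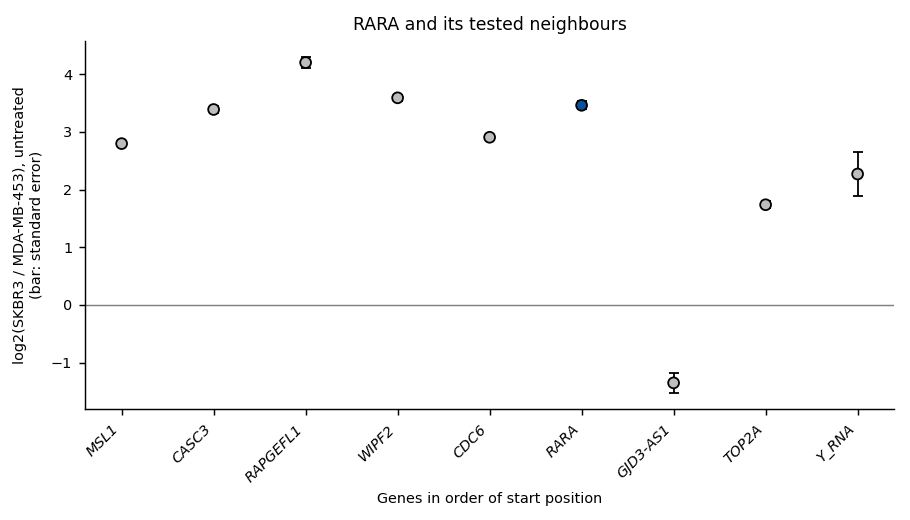
Log2 ratio of untreated SKBR3 to untreated MDA-MB-453 (bar, standard error) for RARA (blue) and its tested neighbours (grey) in order of start position, without ENSG00000287644 and RARA-AS1, which were at the limit of detection in 1 line. RARA at 3.46 lies between MSL1 at 2.80 and RAPGEFL1 at 4.20, and GJD3-AS1 lies below 0.

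Of 61 other genes of the retinoid pathway, listed by role, 33 were tested in SKBR3 and 9 were called, all of them higher, which is 27.3% against 10.4% of all genes. In MDA-MB-453, 32 were tested and 2 were called higher, or 6.25% against 1.49%. Both of these calls were lost with single libraries left out, and of the SKBR3 calls those of CRABP2, SDR16C5 and RARG were lost without untreated replicate 2. The genes called belonged to retinol uptake and retinoic acid binding, to 1 further dehydrogenase, to the nuclear receptors and to genes known to be induced by retinoic acid. Lists of transport, induced genes, receptors and coregulators were described by their counts and medians and not tested as sets. The gene lists, like the members, were chosen with earlier results of these data known. Nothing is therefore read from their shares against all genes, and the adjusted p-values given below are a description.

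Among 9 genes of retinol transport and storage tested in SKBR3, STRA6 and CRABP2 rose, against 6.6% of all genes called higher. STRA6, the cell-surface receptor that takes up retinol from its binding protein, was at 2.52, 2.44 and 2.35 CPM in untreated and 12.5, 12.7 and 16.1 CPM in TWEAK-treated SKBR3. The groups were far apart (log2 fold change 2.49, SE 0.134, edgeR adjusted p = 7.54e-07), whereas MDA-MB-453 had at most 3 counts of STRA6 in any library. CRABP2, which carries retinoic acid to its receptor, was at 44.8, 49.4 and 51.8 CPM in untreated and 57.7, 62.0 and 54.4 CPM in TWEAK-treated SKBR3 (log2 fold change 0.25, SE 0.0782, edgeR adjusted p = 0.0894). Without untreated replicates 1, 2 or 3 or TWEAK replicate 1 this call was lost (edgeR adjusted p = 0.373, 0.254, 0.102 and 0.172). The call was also lost with the replicate block. In MDA-MB-453 CRABP2 was at 504 ± 20.3 CPM (SD, n = 3) untreated and 505 ± 32.5 CPM with TWEAK. The list had a median log2 fold change of 0.14 in SKBR3, against -0.01 over all genes, and of 0.01 in MDA-MB-453, against 0.00.

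SDR16C5, a retinol dehydrogenase of epithelia, was the 1 gene called among the other dehydrogenases, of which 6 were tested in SKBR3 and 7 in MDA-MB-453. It was higher with TWEAK in both lines, at 1.76, 0.952 and 0.866 CPM in untreated and 2.75, 2.45 and 2.30 CPM in TWEAK-treated SKBR3 (log2 fold change 1.03, SE 0.249, edgeR adjusted p = 0.0284). MDA-MB-453 held 0.186, 0.182 and 0.367 CPM of it in untreated and 0.924, 0.858 and 0.518 CPM in TWEAK-treated replicates (log2 fold change 1.58, SE 0.374, edgeR adjusted p = 0.0686). The groups did not overlap in either line. The call was lost in SKBR3 without untreated replicate 2 or 3 (edgeR adjusted p = 0.136 and 0.120), and in MDA-MB-453 without untreated replicate 1 or 2 or TWEAK replicate 1 and with all 12 libraries in one fit (edgeR adjusted p = 0.265, 0.405, 0.156 and 0.148). Median log2 fold changes were 0.19 in SKBR3 and 0.01 in MDA-MB-453 for this list. Of the hydroxylases that break down retinoic acid, CYP26B1 alone was tested, in MDA-MB-453, at 0.809 ± 0.0400 CPM (SD, n = 3) untreated and 0.826 ± 0.233 CPM with TWEAK. CYP26A1 and CYP26C1 were too low to be tested in either line.

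Among the other retinoid receptors tested in SKBR3, RARG and RXRA rose and RXRB did not pass the test (log2 fold change -0.02). PPARD, which is not a receptor for retinoic acid but was listed with them, also rose. Thus 3 of 4 listed genes tested were higher, against 6.6% of all genes. RXRA, the partner of the retinoic acid receptors on DNA, was at 131, 131 and 138 CPM in untreated and 169, 161 and 168 CPM in TWEAK-treated SKBR3 (log2 fold change 0.31, SE 0.0568, edgeR adjusted p = 0.00600). PPARD, a fatty acid receptor that also pairs with the retinoid X receptors, was at 41.5, 40.2 and 41.2 CPM in untreated and 54.3, 56.1 and 53.9 CPM in TWEAK-treated SKBR3 (log2 fold change 0.41, SE 0.0619, edgeR adjusted p = 0.00147). Neither pair of groups overlapped. In MDA-MB-453 RXRA was at 159 ± 2.35 CPM (SD, n = 3) untreated and 154 ± 9.32 CPM with TWEAK, and PPARD at 170 ± 1.74 CPM and 159 ± 9.43 CPM. The change differed between the lines for both, by -0.36 for RXRA (edgeR adjusted p = 0.00906) and by -0.51 for PPARD (edgeR adjusted p = 3.97e-04), MDA-MB-453 minus SKBR3. PPARD passed the test as lower in MDA-MB-453 when TWEAK replicate 2 was left out (log2 fold change -0.14, edgeR adjusted p = 0.0138). RARG, the receptor of the same family as RARA, was at 90.2, 93.6 and 104 CPM in untreated and 111, 121 and 119 CPM in TWEAK-treated SKBR3 (log2 fold change 0.29, SE 0.0704, edgeR adjusted p = 0.0310). This call was lost without untreated replicate 1 or 2 (edgeR adjusted p = 0.181 and 0.174). Like RARA, RARG was lower in MDA-MB-453, at 14.9 ± 1.21 CPM untreated (SD, n = 3). The list had a median log2 fold change of 0.30 in SKBR3 and of -0.06 in MDA-MB-453.

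None of the 7 receptor coregulators reported was called by edgeR in either line. In SKBR3 their median log2 fold change was -0.07 and none had an unadjusted p under 0.05. In MDA-MB-453 all 7 fitted values were below 0, with a median of -0.12, and NCOA1 (-0.17), EP300 (-0.24) and CREBBP (-0.19), which are coactivators, had an unadjusted p under 0.05. Untreated and TWEAK-treated replicates of EP300 and CREBBP overlapped, and the lowest TWEAK-treated value of all 7 genes was that of TWEAK replicate 1 in MDA-MB-453 and of TWEAK replicate 2 in SKBR3. Of the other GPRC5 receptors, GPRC5D was too low to be tested and GPRC5B was not called in either line (log2 fold changes -0.07 and -0.13), at 15.1 ± 0.789 CPM in untreated SKBR3 and 4.23 ± 0.127 CPM in untreated MDA-MB-453.

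The list of genes known to be induced by retinoic acid, which shares STRA6, CRABP2, CYP26A1, CYP26B1 and NRIP1 with the lists above, had 9 genes tested in SKBR3. Of these 5 were higher, namely STRA6, CRABP2, TGM2, PLAAT4 and PDK4, against 6.6% of all genes called higher. The median log2 fold change was 0.25. The list holds none of the members. Of members linked above to induction by retinoic acid, DHRS3 was higher in SKBR3 (0.61) and GPRC5A lower (-1.41). RARB (-0.12) and GPRC5C (-0.16) were not called there. The other 4 genes of the list had fitted log2 fold changes below 0 and were not called by edgeR, namely RAI14 (-0.27, unadjusted p = 0.0159), SOX9 (-0.20, unadjusted p = 0.0299), BTG2 (-0.10) and NRIP1 (-0.08). TGM2, a transglutaminase, held 2, 5 and 3 counts in untreated and 26, 19 and 12 counts in TWEAK-treated SKBR3 (log2 fold change 2.51, SE 0.454, edgeR adjusted p = 0.00536). PLAAT4, a phospholipase and acyltransferase also known as RARRES3, was at 1.15, 2.44 and 2.19 CPM in untreated and 4.13, 5.77 and 5.85 CPM in TWEAK-treated SKBR3 (log2 fold change 1.46, SE 0.238, edgeR adjusted p = 0.00280). PLAAT4 was not called in MDA-MB-453 (log2 fold change 0.79), but it was called with no filter on low counts (0.79) and when untreated replicate 1 (1.04) or TWEAK replicate 2 (0.90) was left out. The replicate block also gave a call of PLAAT4 there. PDK4, a kinase that inhibits pyruvate dehydrogenase, was at 12.2, 13.2 and 12.6 CPM in untreated and 19.3, 16.2 and 18.0 CPM in TWEAK-treated SKBR3 (log2 fold change 0.49, SE 0.0874, edgeR adjusted p = 0.00509). For TGM2, PLAAT4 and PDK4 the groups did not overlap. In MDA-MB-453, 8 genes of the list were tested, with a median of 0.01, and RARRES1 alone was called, against 1.49% of all genes. RARRES1, a membrane protein gene named for its response to retinoids, was at 5.76, 5.40 and 5.69 CPM in untreated and 7.74, 7.28 and 7.56 CPM in TWEAK-treated MDA-MB-453 (log2 fold change 0.42, SE 0.0851, edgeR adjusted p = 0.0249), while SKBR3 held at most 1 count per library. The call of RARRES1 was lost without untreated replicate 2 or 3 or TWEAK replicate 3 and with all 12 libraries in one fit (edgeR adjusted p = 0.177, 0.116, 0.129 and 0.110). TGM2 and PDK4 held at most 1 count in any MDA-MB-453 library, STRA6 at most 3, and RARRES1 at most 1 in any SKBR3 library, so that no difference between the lines is given for them. For PLAAT4 and CRABP2 it was not called (edgeR adjusted p = 0.566 and 0.235). Of the exonic bases of RARRES1, 14.4% are shared with genes on the opposite strand, among them MFSD1.

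**Figure D5:**
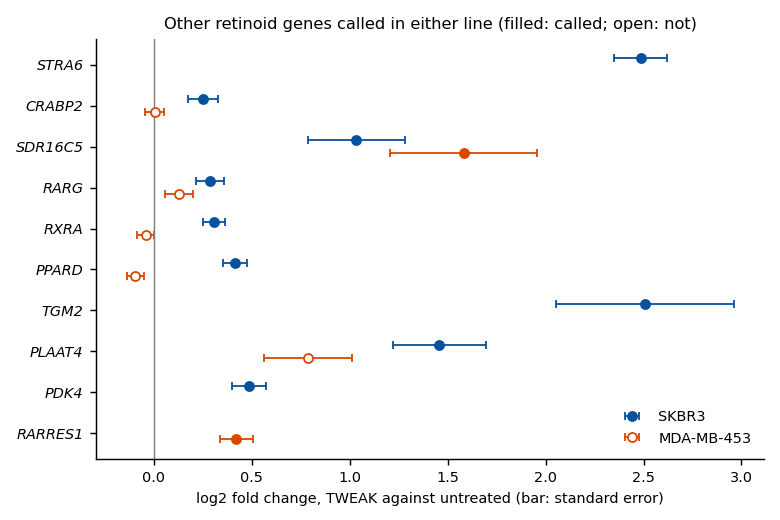
Log2 fold change with TWEAK of the other retinoid pathway genes called in either line, in SKBR3 (blue) and MDA-MB-453 (orange), with bars of 1 standard error and filled points where called. STRA6 and TGM2 stand near 2.5 in SKBR3 and were not tested in MDA-MB-453, and SDR16C5 is the gene filled in both lines.

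Genes with the pattern most like that of RDH16 over the 12 libraries, by Pearson's r of log2(CPM + 0.5) among the 17201 genes tested, were ICAM1 (0.991), PSMB9 (0.983), IL27RA (0.980), RUNX2 (0.964) and TRAF1 (0.956). ICAM1, a cell adhesion molecule, averaged 3.92 CPM in untreated and 22.0 CPM in TWEAK-treated SKBR3, and 6.68 and 9.80 CPM in the MDA-MB-453 groups, which places its groups in the same order as those of RDH16. RUNX2 was low, with 1.39 CPM in TWEAK-treated SKBR3 and at most 0.449 CPM in the other group means. Those most like GPRC5A were CDCA7L (0.989), TRIM37 (0.984), TSC22D3 (0.981), SECTM1 (0.976) and NVL (0.972). CDCA7L averaged 14.5 CPM in untreated and 3.60 CPM in TWEAK-treated SKBR3, and 34.9 and 27.4 CPM in the MDA-MB-453 groups. The libraries share line and treatment, so these values of r are a description of 4 groups.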

How the data were processed

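RNA-seq counts of 12 libraries were used. The authors trimmed adaptors with Trimmomatic, aligned to hg38 with STAR, assigned reads to genes with featureCounts and deposited whole-number counts without normalisation. Tool versions, strand setting and annotation release are not given in the sources used here. The labels name a DNA library kit, the paper a directional kit for RNA. Of 62696 identifiers, 62625 matched GENCODE release 44 without their version (61918 with it), which gave symbols, exon lengths and overlaps.

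Within each line, the TWEAK-treated libraries were set against the untreated ones with edgeR 4.0.16 in R 4.3.3 (filterByExpr, TMM, two-sided quasi-likelihood test, prior count 0.125, Benjamini-Hochberg adjustment over all genes tested, threshold 0.1), without a replicate block. The difference of the changes between lines and the untreated lines were compared over all 12 libraries. The scripts were tested on simulated counts. Groups at 3 counts or fewer in every library were treated as at the limit of detection, and limits cover counting error only, as the counts carry no molecular identifiers. The members and gene lists were chosen with earlier results of these data known. All members were named, with every listed gene called in either line, the 5 tested genes most like RDH16 and GPRC5A, which had the largest changes among the members called in SKBR3 with a mean of at least 1 CPM there, and the 5 tested genes on either side of RARA. Alternatives were DESeq2 size factors, DESeq2 1.42.0, no filter, a mean of at least 10 counts, all 12 libraries in one fit, the replicate block, a threshold of 0.05 and each library left out in turn. Sequences are from RefSeq. Some items of these lists are not reported here.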

Additional observations from a re-analysis of the deposited data

Results flagged for a closer look

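For 3 members the change with TWEAK differed between the lines in the test of the difference itself, an edgeR contrast over all 12 libraries in which a positive value means a higher change in MDA-MB-453. For RDH16 the difference was -2.79 on the log2 scale, with a rise in both lines that was larger in SKBR3. For GPRC5A it was 1.36, with a lower level under TWEAK in SKBR3 and overlapping groups in MDA-MB-453. For RDH10 it was 0.30, from changes of -0.16 in SKBR3 and 0.14 in MDA-MB-453 that were not called in either line. The members were chosen with these responses known, so these differences are a description. The difference for RDH10 was no longer called in 11 of 17 alternatives, whereas those of RDH16 and GPRC5A were called in all 17.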

How the results depend on the processing

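RDH16 and GPRC5A kept their direction and call in SKBR3, and RDH16 in MDA-MB-453, under all 13 alternatives, with log2 fold changes of 3.57 to 3.79, -1.48 to -1.36 and 0.74 to 0.96. Of the 10 members, 5 were called in SKBR3 and between 3 and 5 with a library left out. In MDA-MB-453, 2 were called, 1 with all 12 libraries in one fit, 1 at a threshold of 0.05, and between 1 and 3 with a library left out. In these the call of DHRS3 was lost or that of RDH10 gained. Over all genes, 1633 were called in SKBR3, 2575 with all 12 libraries in one fit and 926 to 2780 with a library left out. In MDA-MB-453, 223 were called, 480 without a filter, 144 with all 12 libraries in one fit and 131 to 2101 with a library left out. The higher ends came without TWEAK replicate 2, as did 1150 of 394 to 1150 genes called for a difference between lines (579 with all libraries). Signs turned with single libraries left out only for changes that were not called. With a library left out, RARA in SKBR3 ranged from -0.0065 (without untreated replicate 2) to 0.084 and RARB in SKBR3 from -0.45 to 0.11 (without TWEAK replicate 1). RARB in MDA-MB-453 ranged from -0.16 (without TWEAK replicate 2; -0.010 without untreated replicate 3) to 0.59, and its difference between lines from -0.044 (without TWEAK replicate 2 of MDA-MB-453) to 0.69. CRABP2 in MDA-MB-453 ranged from -0.034 (without TWEAK replicate 1) to 0.052, and was at -0.030 and -0.0090 without untreated replicate 2 and TWEAK replicate 3. The cause of these shifts was not tested. Replicate numbers were not taken to pair the samples. The correlations of same-numbered deviations in SKBR3 were 0.169, -0.144 and -0.233, and those in MDA-MB-453 0.129, 0.133 and 0.0239. The largest correlation in SKBR3, 0.346, was between untreated replicate 3 and TWEAK replicate 2. In MDA-MB-453 each sample correlated best with its own number, and in SKBR3 not every sample did. The paper states that its cell line experiments were repeated independently on different days. Whether replicates of the same number shared a day is not given in the sources used here. With the replicate block 5 members were called in SKBR3 and 3 in MDA-MB-453, with RDH10 added, 2 for a difference between lines, and 1211, 894 and 422 genes in all, and PLAAT4 was called in MDA-MB-453 (0.80) while CRABP2 was not called in SKBR3 (0.25). Depth limits RARB, ALDH1A1 and, in MDA-MB-453, DHRS3, which hold few counts.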
